A study of Homo sapiens with 6 samples.

Results

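The genes described here were the long intergenic noncoding RNA (lincRNA) genes that MDA-MB-231 cells expressed at a readable level. A gene was included when the table's gene type was lincRNA and its mean over the 6 libraries was at least 2 CPM (its count as a share of the library's total, scaled to a fixed total). This gave 218 genes, out of 7572 lincRNA genes and 60461 genes in all. A further 3902 lincRNA genes had no count in any library. The genes were thus selected on their own counts, averaged over both groups, so the levels below are a description.

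MDA-MB-231 is a breast cancer cell line without hormone receptors or HER2 amplification (triple-negative). One group of cells received an adenovirus coding for ADAR1 p110, the constitutive and mainly nuclear form of an enzyme that edits double-stranded RNA by turning adenosine into inosine. The other group received an adenovirus coding for enhanced green fluorescent protein (GFP), so both groups were virus-treated. Both viruses were given at a multiplicity of infection of 200, the medium was replaced after 16 h and total RNA was taken at 48 h. Each group had 3 libraries, called biological replicates in the labels with no account of how the cultures were kept apart, and every p-value therefore reflects library-to-library spread alone, which may be technical.

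LincRNA genes are annotated as separate from protein-coding genes, although some spans overlap one, and most are transcribed by RNA polymerase II and spliced like messenger RNA. Some act as RNA: they scaffold nuclear bodies, guide enzymes or hold RNA-binding proteins. Others are known mainly as hosts from which microRNAs or small nucleolar RNAs (snoRNAs) are cut, or as transcripts made near the start of a protein-coding gene.

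Library totals were 74696405 to 98799000 counts in the ADAR1 p110 group and 72741235 to 99589278 in the GFP group. ADAR itself had 1006 ± 13.2 CPM in ADAR1 p110 libraries and 267 ± 8.67 CPM in GFP libraries (SD, n = 3 each), a log2 fold change of 1.91 (adjusted p = 2.67e-09, edgeR). Here and below, values by library are CPM after TMM scaling, which adjusts library totals for composition. The summed level of 6 genes typical of the line was 5633 to 5786 CPM in ADAR1 p110 libraries and 5311 to 5515 CPM in GFP libraries, with VIM the highest. Markers of other cells were low: the summed level was 2.96 to 3.55 CPM in ADAR1 p110 libraries against 3.46 to 4.52 CPM in GFP libraries for 4 leukocyte genes (CD3E had no count, CD14 the most), and 2.88 to 3.39 against 3.54 to 3.77 CPM for 3 fibroblast genes. For 2 endothelial genes it was 0.122 to 0.211 against 0.0691 to 0.193 CPM in the same order of groups. The 3 epithelial genes, mostly KRT19, summed to 411 to 482 CPM in ADAR1 p110 libraries and 379 to 388 CPM in GFP libraries. A set of 4 luminal receptor genes (ESR1, PGR, ERBB2 and GATA3), expected low in this line, was not low as a sum. It had 92.3 to 95.5 CPM in ADAR1 p110 libraries and 87.7 to 92.8 CPM in GFP libraries. Most of this was ERBB2, with means of 90.1 and 85.8 CPM in the ADAR1 p110 and GFP groups. The sums of the line's own genes, the fibroblast genes and the epithelial genes did not overlap between the groups. Within the line's set, VIM, CAV1 and AXL had the higher mean in ADAR1 p110 cells, and CD44, EGFR and MSN in GFP cells. The part of these differences in the results below was not tested. ADAR1 p110 replicate 1 and GFP replicate 2 stood apart from the other libraries on the second principal component of all tested genes, at 26.2 and 24.1 against -18.2 to -7.49. This component held 21.8% of the variance and did not separate the groups. The first component held 33.1% and did separate them, at -25.8 to -18.6 in ADAR1 p110 libraries and 19.2 to 25.5 in GFP libraries.

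The 218 genes took 0.977% to 1.02% of all counts in ADAR1 p110 libraries and 0.895% to 1.18% in GFP libraries. In every library 4 genes, RMRP, MALAT1, NORAD and NEAT1, held 75.3% to 81.2% of these counts. The median gene had 5.45 CPM, 103 genes were under 5 CPM, and 6 had 100 CPM or more. Both group means were at least 2 CPM for 208 genes. For 6 genes only the ADAR1 p110 mean reached 2 CPM, and for 4 only the GFP mean did. Such genes entered the set through the group in which they were higher. LINC00473, at 2.01 CPM, and AL121761.1, at 2.02 CPM, were just inside the limit, and LINC01106, at 1.99 CPM, and AP001453.3, at 1.97 CPM, were just outside. Of the 218 gene IDs, 205 were found in a later annotation of the same build, GRCh37, all at the same place. There 201 were typed lncRNA, 3 lincRNA and 1, AC093323.1, protein-coding.

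Of the 218 genes, 10 passed the test at an adjusted p under 0.05 (edgeR's quasi-likelihood test, Benjamini-Hochberg adjustment over all 18899 tested genes). This was 4.59% of the set, against 4.91% of all tested genes and 7.11% of protein-coding genes with a mean of at least 2 CPM. Higher in ADAR1 p110 cells were 6 genes (2.75%, against 1.95% of all tested genes). Lower were 4 genes (1.83%, against 2.96%). The called share of the lincRNA genes was thus close to the background. Tested against a change of 1.5-fold, only MIR3142HG passed, where 0.397% of all tested genes did. In 56 genes the 3 values of one group were all above the 3 of the other, 34 of them higher and 22 lower in ADAR1 p110 cells. That was 25.7%, against 24% of all tested genes. The count of 6 higher genes depended on the libraries used: leaving out ADAR1 p110 replicate 1 gave 13, while 2 were left after dropping ADAR1 p110 replicate 2 or 3, or GFP replicate 1 or 3, one at a time. The count of 4 lower genes was 2 without GFP replicate 1. The calls over all tested genes moved with them, to 9.19% without ADAR1 p110 replicate 1 and to between 2.06% and 2.52% without each of the other 4 libraries just named.

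**Figure D1:**
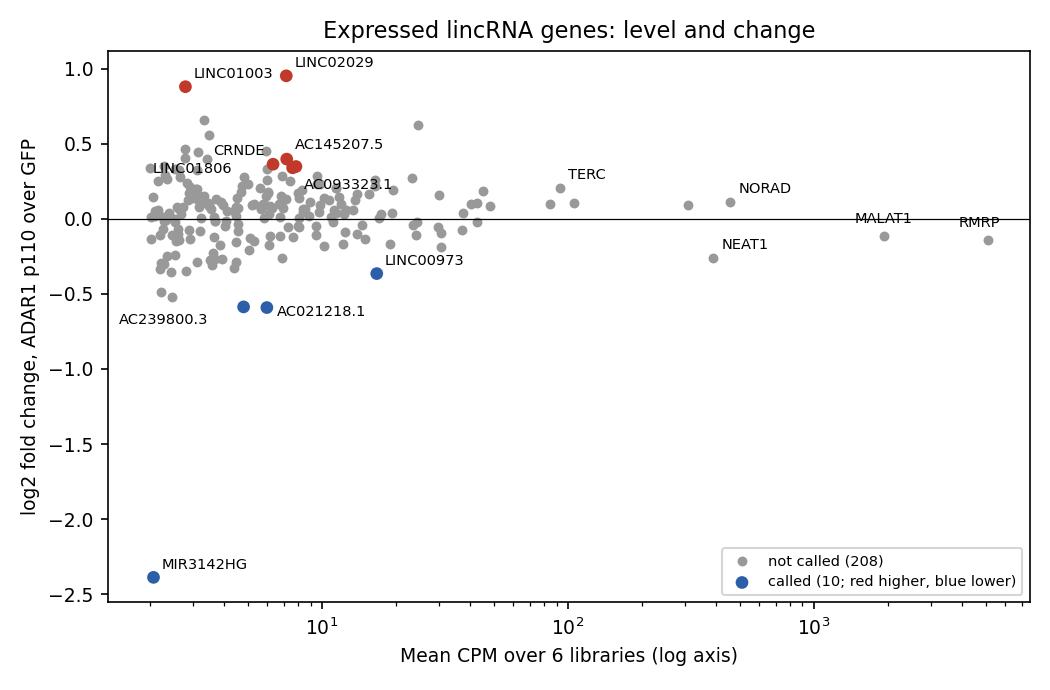
Log2 fold change of each of the 218 lincRNA genes (ADAR1 p110 over GFP) against its mean CPM over the 6 libraries, on a log axis. Each point is a gene; red points were called higher, blue points called lower and grey points not called. MIR3142HG lies alone at -2.39, and the most abundant genes, RMRP, MALAT1, NORAD and NEAT1, lie within 0.26 of 0.

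MIR3142HG fell furthest. It is the host gene of microRNA miR-146a, a well-known product of NF-kappaB signalling that represses the signalling adaptors TRAF6 and IRAK1. The gene lies at chr5:159895275-159914433 on the plus strand (hg19). Its level was 0.369, 0.731 and 0.892 CPM in ADAR1 p110 replicates 1, 2 and 3, against 4.29, 3.23 and 2.99 CPM in GFP replicates 1, 2 and 3. These values rest on 28, 72 and 69 counts in ADAR1 p110 libraries and on 372, 234 and 294 counts in GFP libraries. The lowest GFP library was above the highest ADAR1 p110 library by more than the spread in either group. The level was 5.23-fold lower in ADAR1 p110 cells (log2 fold change -2.39, SE 0.26, adjusted p = 0.000350, edgeR). It was a member of the set only through the GFP libraries, since its mean in ADAR1 p110 cells was 0.664 ± 0.268 CPM against 3.50 ± 0.691 CPM in GFP cells (SD, n = 3 each).

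RefSeq places miR-3142 and miR-146a inside this gene, and their mature sequences are shown because they are what the host transcript can release. The capitals mark the seed, bases 2 to 8, which pairs with target messenger RNAs (RefSeq, GRCh38.p14, plus strand of chromosome 5).
hsa-miR-146a-5p: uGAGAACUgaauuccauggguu
hsa-miR-146a-3p: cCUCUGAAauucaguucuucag
hsa-miR-3142: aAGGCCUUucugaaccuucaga
The 3 seeds differ from each other. A row for miR-146a was not analysed here. The row for the miR-3142 hairpin had 1, 0 and 0 counts in ADAR1 p110 libraries and 2, 1 and 6 in GFP libraries, and total RNA libraries of this kind do not capture mature microRNAs well. Whether mature miR-146a differed was therefore not measured.

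The start of MIR3142HG in RefSeq is shown because this promoter is the place where NF-kappaB is known to act on the gene. It covers 250 bases before and 50 bases after the start, chr5:160468001-160468300, plus strand, GRCh38.p14. The capitals mark a match to the NF-kappaB consensus, whose first base lies 120 bases before the start.
MIR3142HG: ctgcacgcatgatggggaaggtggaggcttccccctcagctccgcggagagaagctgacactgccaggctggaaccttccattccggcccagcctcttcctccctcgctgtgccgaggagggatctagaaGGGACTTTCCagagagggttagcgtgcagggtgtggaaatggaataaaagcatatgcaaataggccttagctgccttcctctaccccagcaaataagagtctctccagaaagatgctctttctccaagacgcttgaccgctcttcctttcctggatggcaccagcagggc
Windows of the same kind were found for 125 of the 218 genes, 146 windows in all, searched on both strands. The NF-kappaB consensus matched 7 of them (4.79%), against 11.3% of all 35116 promoter windows. Of the 6 called genes that had a window, only MIR3142HG held a match. A match describes these letters and not binding.

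LincRNA genes tied to NF-kappaB or interferon formed a list of 4 genes, of which 1, MIR3142HG, was called lower and none higher. Over all tested genes 2.96% were called lower and 1.95% higher. A single call in so short a list describes that gene and not the list. LUCAT1, which restrains the interferon response, had 9.08 ± 1.40 CPM in ADAR1 p110 cells and 9.79 ± 0.799 CPM in GFP cells (adjusted p = 0.677, edgeR). PSMB8-AS1, which starts opposite the immunoproteasome gene PSMB8, had 7.16 ± 0.801 and 7.44 ± 0.799 CPM in the ADAR1 p110 and GFP groups (adjusted p = 0.855, edgeR). Its span overlaps TAP1 and PSMB8 on the opposite strand and PSMB9 on its own strand, each of them called lower. These held 3019%, 1455% and 727% as many counts as PSMB8-AS1, so reads from the shared stretches cannot be assigned with certainty. BISPR, which neighbours the interferon-induced gene BST2, had 2.42 ± 0.214 CPM in ADAR1 p110 cells and 2.36 ± 0.204 CPM in GFP cells (adjusted p = 0.922, edgeR; SD, n = 3 each in all of these). The other 3 genes thus overlapped between the groups. Over the list the log2 fold changes had a median of -0.08, against 0.005 over all tested genes.

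LINC02029 rose furthest. Its role is not described here, and it lies at chr3:156799630-156806336 on the plus strand (hg19). It had 8.78, 9.04 and 10.5 CPM in ADAR1 p110 replicates 1, 2 and 3, against 5.44, 4.63 and 4.55 CPM in GFP replicates 1, 2 and 3. The groups did not overlap, and the level was 1.93-fold higher in ADAR1 p110 cells (log2 fold change 0.95, SE 0.10, adjusted p = 0.000368, edgeR). On the opposite strand it overlaps LINC00880, another gene of the set, which held 50.5% as many counts. LINC00880 had 3.19 ± 0.220 CPM in ADAR1 p110 cells and 3.95 ± 0.182 CPM in GFP cells (SD, n = 3 each; log2 fold change -0.31, adjusted p = 0.138, edgeR). The fold changes of the overlapping pair thus had opposite signs. The sources used here do not say whether counting used the strand, so reads from the shared stretch cannot be assigned with certainty.

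The RefSeq start of LINC02029 is shown for its match to the AP-1 motif TGANTCA, a site known to bind Jun and Fos proteins (chr3:157081591-157081890, plus strand, GRCh38.p14). The capitals mark the match, whose first base lies 35 bases before the start.
LINC02029: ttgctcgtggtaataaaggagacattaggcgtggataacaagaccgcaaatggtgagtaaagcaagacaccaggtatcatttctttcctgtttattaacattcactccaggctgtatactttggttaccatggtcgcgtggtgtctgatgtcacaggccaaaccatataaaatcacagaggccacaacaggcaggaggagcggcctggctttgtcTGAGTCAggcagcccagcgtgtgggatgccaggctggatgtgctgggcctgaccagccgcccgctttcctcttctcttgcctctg
On both strands, TGANTCA matched 20 of the 146 windows of the lincRNA genes (13.7%), against 7.71% of all promoter windows. Among called genes LINC02029 and LINC00973 held a match, and one rose while the other fell.

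LINC01003, at chr7:152160871-152162634 on the plus strand (hg19), was the other gene with a rise near 2-fold. It had 3.32, 3.93 and 3.58 CPM in ADAR1 p110 replicates 1, 2 and 3, against 1.90, 1.83 and 2.14 CPM in GFP replicates 1, 2 and 3. All 3 ADAR1 p110 libraries were above all 3 GFP libraries, 1.84-fold on the fitted scale (log2 fold change 0.88, SE 0.12, adjusted p = 0.00209, edgeR). Its GFP mean of 1.96 ± 0.164 CPM was under the limit of 2 CPM, so it entered through the ADAR1 p110 libraries, at 3.61 ± 0.306 CPM (SD, n = 3 each).

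CRNDE, a lincRNA often raised in tumours and placed opposite the start of the homeobox gene IRX5, was called higher. It lies at chr16:54879101-54963101 on the minus strand (hg19). It had 8.98, 8.70 and 7.80 CPM in ADAR1 p110 replicates 1, 2 and 3, against 6.90, 6.67 and 6.57 CPM in GFP replicates 1, 2 and 3. The groups did not overlap, with a log2 fold change of 0.34 (SE 0.08, adjusted p = 0.0421, edgeR). The call was lost whenever 1 of the 6 libraries was left out, with an adjusted p (edgeR) between 0.0501 without ADAR1 p110 replicate 3 and 0.148 without GFP replicate 3 (0.0578 with ADAR1 p110 replicate 1 dropped, 0.144 with replicate 2, 0.117 with GFP replicate 1 and 0.0937 with GFP replicate 2).

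The remaining genes called higher had changes between 1.27-fold and 1.32-fold and have no role described here. AC145207.5, at chr17:79836301-79838982 on the minus strand, had 7.71, 8.35 and 8.46 CPM in ADAR1 p110 replicates, against 6.30, 6.44 and 5.91 CPM in GFP replicates (log2 fold change 0.40, SE 0.08, adjusted p = 0.0188, edgeR). LINC01806, at chr2:162101250-162105561 on the plus strand, had 7.52, 6.95 and 6.89 CPM in ADAR1 p110 replicates, against 5.50, 5.82 and 5.31 CPM in GFP replicates (log2 fold change 0.36, SE 0.08, adjusted p = 0.0337, edgeR). AC093323.1, at chr4:6675178-6677774 on the plus strand, had 7.92, 9.26 and 9.18 CPM in ADAR1 p110 replicates, against 7.18, 6.53 and 7.003 CPM in GFP replicates (log2 fold change 0.35, SE 0.09, adjusted p = 0.0495, edgeR). In each gene all ADAR1 p110 libraries were above all GFP libraries. None of the 3 calls held without ADAR1 p110 replicate 2 or 3 or GFP replicate 1 or 3, nor, for AC093323.1, without GFP replicate 2. The adjusted p of edgeR then was 0.0698 to 0.0930 for AC145207.5, 0.0876 to 0.134 for LINC01806 and 0.110 to 0.180 for AC093323.1.

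Beside MIR3142HG, LINC00973, AC021218.1 and AC239800.3 fell. LINC00973, at chr3:98699902-98701940 on the plus strand, had the narrowest spread of the 3. It had 14.5, 14.4 and 15.1 CPM in ADAR1 p110 replicates 1, 2 and 3, against 19.2, 18.9 and 18.5 CPM in GFP replicates 1, 2 and 3 (log2 fold change -0.37, SE 0.06, adjusted p = 0.00642, edgeR). AC021218.1, at chr7:155755326-155759037 on the plus strand, had 5.03, 4.91 and 4.38 CPM in ADAR1 p110 replicates, against 7.97, 7.31 and 6.33 CPM in GFP replicates (log2 fold change -0.59, SE 0.11, adjusted p = 0.00911, edgeR). AC239800.3, at chr1:149284645-149291743 on the plus strand, had 4.52, 3.65 and 3.39 CPM in ADAR1 p110 replicates, against 5.88, 5.80 and 5.66 CPM in GFP replicates (log2 fold change -0.59, SE 0.11, adjusted p = 0.0139, edgeR). In all 3 genes the groups did not overlap. The call of AC021218.1 was lost without GFP replicate 1 (adjusted p = 0.0597, edgeR). That of AC239800.3 was lost without ADAR1 p110 replicate 2 (0.0692) or 3 (0.0644), or GFP replicate 1 (0.0781) or 3 (0.0506). AC239800.3 lies in a stretch of chromosome 1 known for duplicated genes, so its reads may be shared with copies.

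**Figure D2:**
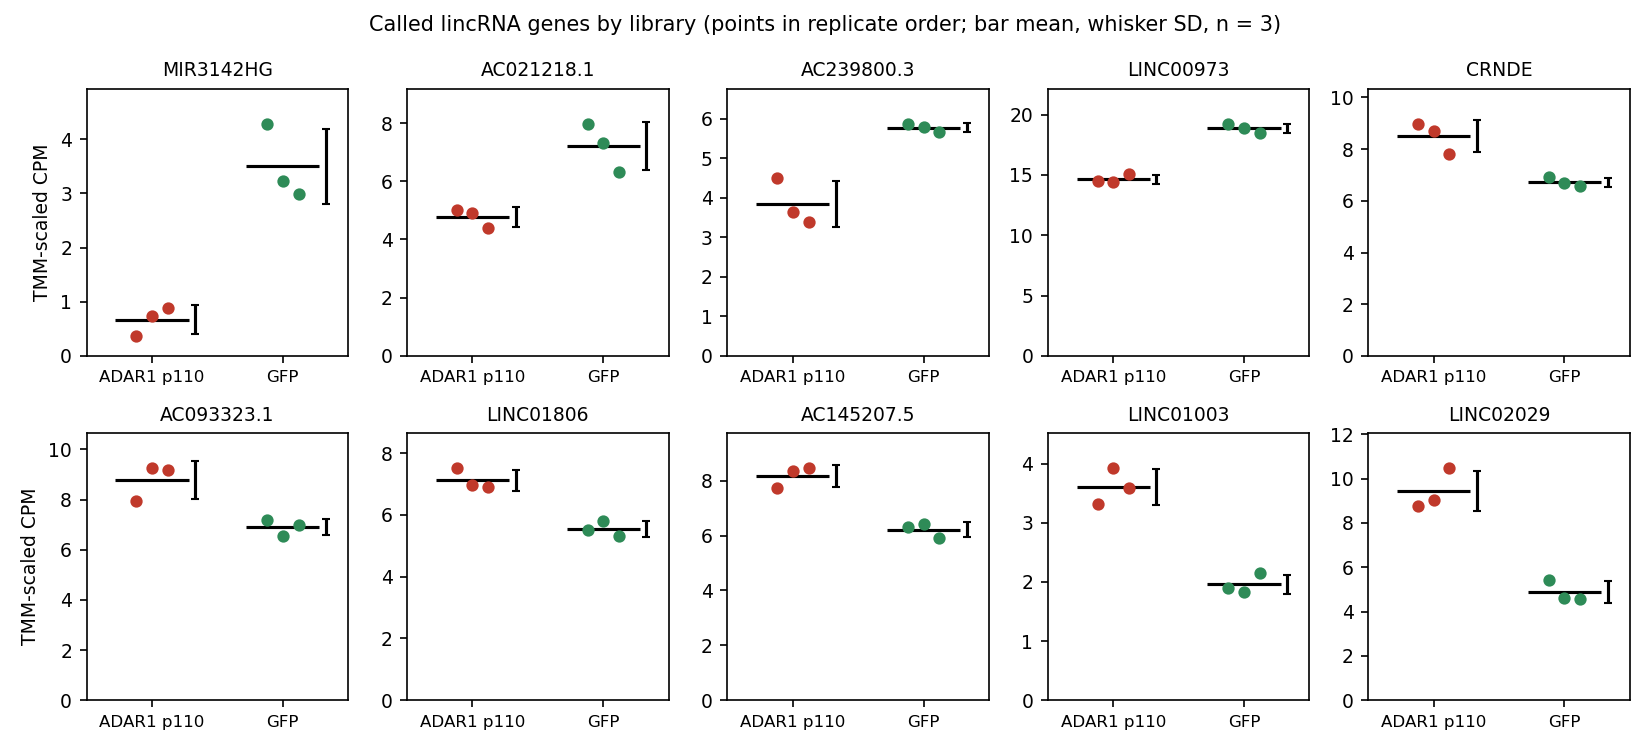
TMM-scaled CPM of the 10 called lincRNA genes in each library, from the largest fall to the largest rise, with axes that start at 0. Red points are ADAR1 p110 libraries and green points GFP libraries, with bars for the mean and whiskers for the SD (n = 3); no red point overlaps the green points of its gene.

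The most abundant lincRNA genes are RNAs with structural or enzymatic roles, and none was called. Per kilobase of gene length, RMRP stood first with 19068 CPM per kilobase, then AL356488.2 with 724, MALAT1 with 220, TERC with 171 and NORAD with 85.6. RMRP, the RNA of the RNase MRP ribonucleoprotein, had 4061, 5658 and 4863 CPM in ADAR1 p110 replicates 1, 2 and 3, against 5362, 6049 and 4667 CPM in GFP replicates 1, 2 and 3. The groups overlapped (log2 fold change -0.14, SE 0.12, adjusted p = 0.584, edgeR). RMRP is short and has near-identical copies in the genome, so its counts are uncertain.

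MALAT1 and NEAT1 lie beside each other on chromosome 11 and are kept in the nucleus, MALAT1 in speckles and NEAT1 as the scaffold of paraspeckles, which also hold edited RNA. MALAT1 had 2345, 1441 and 1768 CPM in ADAR1 p110 replicates 1, 2 and 3, against 1974, 2563 and 1472 CPM in GFP replicates 1, 2 and 3 (log2 fold change -0.11, SE 0.19, adjusted p = 0.824, edgeR). NEAT1 had 419.7, 243 and 402 CPM in ADAR1 p110 replicates, against 469, 554 and 253 CPM in GFP replicates (log2 fold change -0.26, SE 0.25, adjusted p = 0.655, edgeR). Both were highest, within each group, in the library that stood apart, ADAR1 p110 replicate 1 and GFP replicate 2. Their spread was among the widest of the set, with a coefficient of variation (SD as a percent of the mean) of 24.7% and 27.3% for MALAT1 and 27.4% and 36.4% for NEAT1 in the ADAR1 p110 and GFP groups. The median gene of the set had 8.86% and 8.59% in these groups. The sign of the MALAT1 change turned without ADAR1 p110 replicate 2 (0.04) or GFP replicate 2 (0.11), and the NEAT1 change was called only when no low-count filter was used (adjusted p = 0.000468, edgeR). The part of the libraries that stood apart in these values was not tested beyond leaving them out. The list of 4 nuclear and chromatin lincRNA genes, which also held JPX and FTX of the X-inactivation centre, had none called in either direction, and its median (log2 fold change) was -0.10. Over all tested genes 1.95% were called higher and 2.96% lower, so a list this short would often hold none.

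NORAD, which binds Pumilio proteins and helps keep chromosomes stable, had 457, 492 and 476 CPM in ADAR1 p110 replicates 1, 2 and 3, against 434, 453 and 429.7 CPM in GFP replicates 1, 2 and 3. The groups did not overlap, but the difference was not called (log2 fold change 0.11, SE 0.05, adjusted p = 0.259, edgeR). TERC, the template RNA of telomerase, had 99.8, 98.8 and 99.1 CPM in ADAR1 p110 replicates, against 75.9, 89.4 and 92.6 CPM in GFP replicates (log2 fold change 0.21, SE 0.07, adjusted p = 0.139, edgeR). The ADAR1 p110 libraries of TERC lay close together and above each GFP library. Without ADAR1 p110 replicate 1 and GFP replicate 2, both genes were called higher (adjusted p = 0.00561 for NORAD and 0.0274 for TERC, edgeR). Calls rose in general in that fit, to 13.4% of all tested genes from 4.91% with all libraries. TERC, but not NORAD, was also called with all libraries when no low-count filter was used (adjusted p = 0.0299, edgeR). A list of 4 lincRNA genes tied to p53 or genome stability (NORAD, NEAT1, PVT1 and MIR34AHG) had none called, and its median (log2 fold change) was -0.09. With 4.91% of all tested genes called, a list this short would often hold none.

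The other abundant genes also missed the threshold. AL356488.2 had 319 ± 7.33 CPM in ADAR1 p110 cells and 299.7 ± 10.5 CPM in GFP cells (adjusted p = 0.379, edgeR). MIR4435-2HG had 109.96 ± 1.32 and 102 ± 4.88 CPM in the ADAR1 p110 and GFP groups (adjusted p = 0.313, edgeR). CYTOR, which is a near copy of MIR4435-2HG and can share reads with it, had 87.4 ± 2.48 CPM in ADAR1 p110 cells and 81.7 ± 8.41 CPM in GFP cells (adjusted p = 0.535, edgeR). Both are linked to growth and invasion in tumours. EBLN3P, a remnant of an ancient bornavirus gene, had 47.97 ± 4.87 CPM in ADAR1 p110 cells and 42.2 ± 1.496 CPM in GFP cells (adjusted p = 0.210, edgeR; SD, n = 3 each). In a list of 11 lincRNA genes linked to growth and invasion, CRNDE was the 1 called, where 4.91% of all tested genes were. The list's median log2 fold change was 0.05, and 8 were above 0, against 64.7% of the whole lincRNA set.

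Hosts of snoRNAs, the guides of ribosomal RNA modification, formed a list of 8 genes. None was called, where 4.91% of all tested genes were, a share at which a list this short would often hold none. All 8 had a log2 fold change above 0, where 64.7% of the 218 genes and 51.2% of all tested genes did. The median of the hosts was 0.13, against 0.06 for all 218 genes. SNHG8, the most abundant, had 49.6 ± 4.78 CPM in ADAR1 p110 cells and 46.7 ± 3.25 CPM in GFP cells (adjusted p = 0.621, edgeR). SNHG19 had the largest difference, at 3.87 ± 0.311 CPM in ADAR1 p110 cells and 2.93 ± 0.440 CPM in GFP cells (log2 fold change 0.40, adjusted p = 0.124, edgeR; SD, n = 3 each). Its groups did not overlap, while those of the other 7 hosts did.

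MicroRNA hosts formed a list of 15 genes. MIR3142HG, which is also in the NF-kappaB list, was called lower and none was called higher. Over all tested genes 2.96% were called lower and 1.95% higher. The hosts' median log2 fold change was 0.08, and 10 of 15 were above 0, against 64.7% of all 218 genes. MIR22HG, host of miR-22, had 36.2 CPM in ADAR1 p110 cells and 38.1 CPM in GFP cells on average (adjusted p = 0.730, edgeR). MIR222HG, host of miR-221 and miR-222, had 31.6 and 28.4 CPM in the ADAR1 p110 and GFP groups (adjusted p = 0.363, edgeR). MIR210HG, host of the hypoxia-induced miR-210, had 7.15 ± 0.903 CPM in ADAR1 p110 cells and 5.56 ± 0.594 CPM in GFP cells (SD, n = 3 each; log2 fold change 0.36, adjusted p = 0.108, edgeR), without overlap. In all, 18 of the 218 genes span the row of an annotated microRNA, and 1 of the 18 was called (5.56%, against 4.91% of all tested genes).

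The fold changes of the set as a whole were small and leaned upward. The median log2 fold change was 0.06 (interquartile range -0.08 to 0.17), against 0.005 for all tested genes, -0.01 for protein-coding and 0.02 for antisense genes with at least 2 CPM. Tested lincRNA genes under 2 CPM had a median of 0.04, with 547 of 981 (55.8%) above 0. A log2 fold change above 0 was found in 141 of the 218 genes (64.7%), against 51.2% of all tested genes and 48.3% of the protein-coding genes. In 150 genes the log2 fold change was within 0.2 of 0, and in 9 it was beyond 0.5. Each library's median deviation of the 218 genes (log2 scale) was -0.003, 0.06 and 0.03 in the ADAR1 p110 group, against -0.01, -0.03 and -0.04 in the GFP group, each in replicate order. These values did not overlap between the groups, and they are a description with no test. The 218 genes are not replicates of a condition. The median stayed between 0.05 and 0.09 under the other scalings and tools, the replicate block, each library left out, the 5 CPM limit and removal of overlapping genes. The highest value, 0.09, was by library size alone, where the median over all tested genes also rose, to 0.03.

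**Figure D3:**
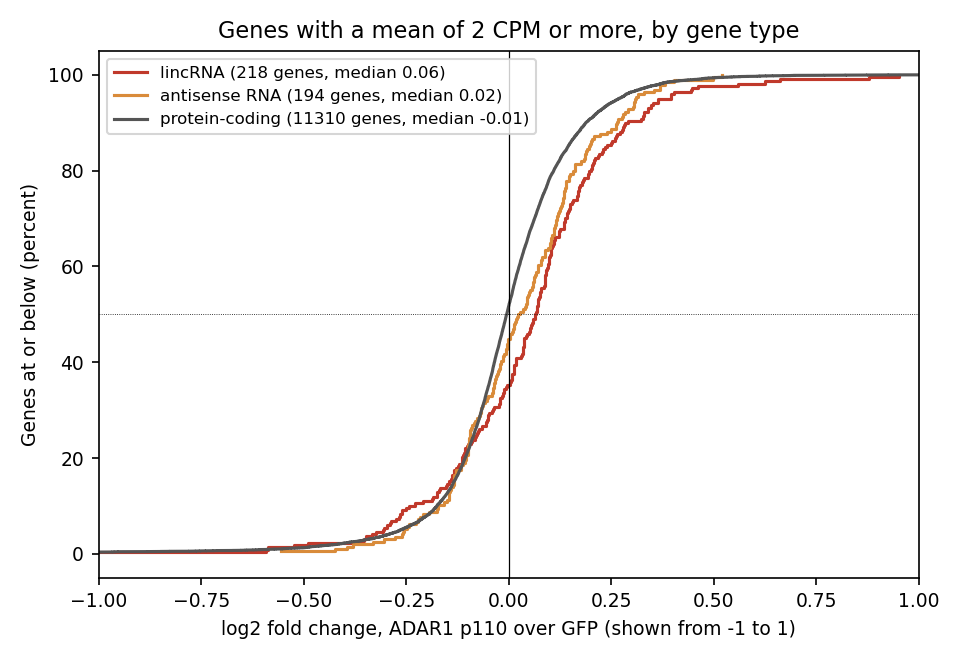
Percent of genes at or below a given log2 fold change (ADAR1 p110 over GFP), for lincRNA, antisense and protein-coding genes with a mean of at least 2 CPM. The lincRNA curve lies to the right of the protein-coding curve over the middle of the range and crosses 50% at 0.06 rather than -0.01.

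Summed over the 218 genes, the level was 9603, 10203 and 9886 CPM in ADAR1 p110 replicates 1, 2 and 3, against 10498, 11851 and 9063 CPM in GFP replicates 1, 2 and 3. The means of 9897 ± 300.4 CPM and 10471 ± 1394 CPM did not differ beyond that spread (exact permutation test, two-sided, p = 0.6). RMRP and MALAT1 made up most of the sum. Without the 5 most abundant genes, the rest summed to 2008, 2042 and 2060 CPM in ADAR1 p110 libraries, and to 1963, 1940 and 1931 CPM in GFP libraries. These groups did not overlap, with means of 2037 ± 26.7 CPM in ADAR1 p110 cells and 1944 ± 16.7 CPM in GFP cells, a difference of 4.74%. The exact two-sided p was 0.1, the smallest that 3 libraries against 3 allow, so the design could not reach 0.05. By library size alone the difference was 6.48%. In bulk RNA a change in level per cell and a change in which cells contribute cannot be told apart.

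**Figure D4:**
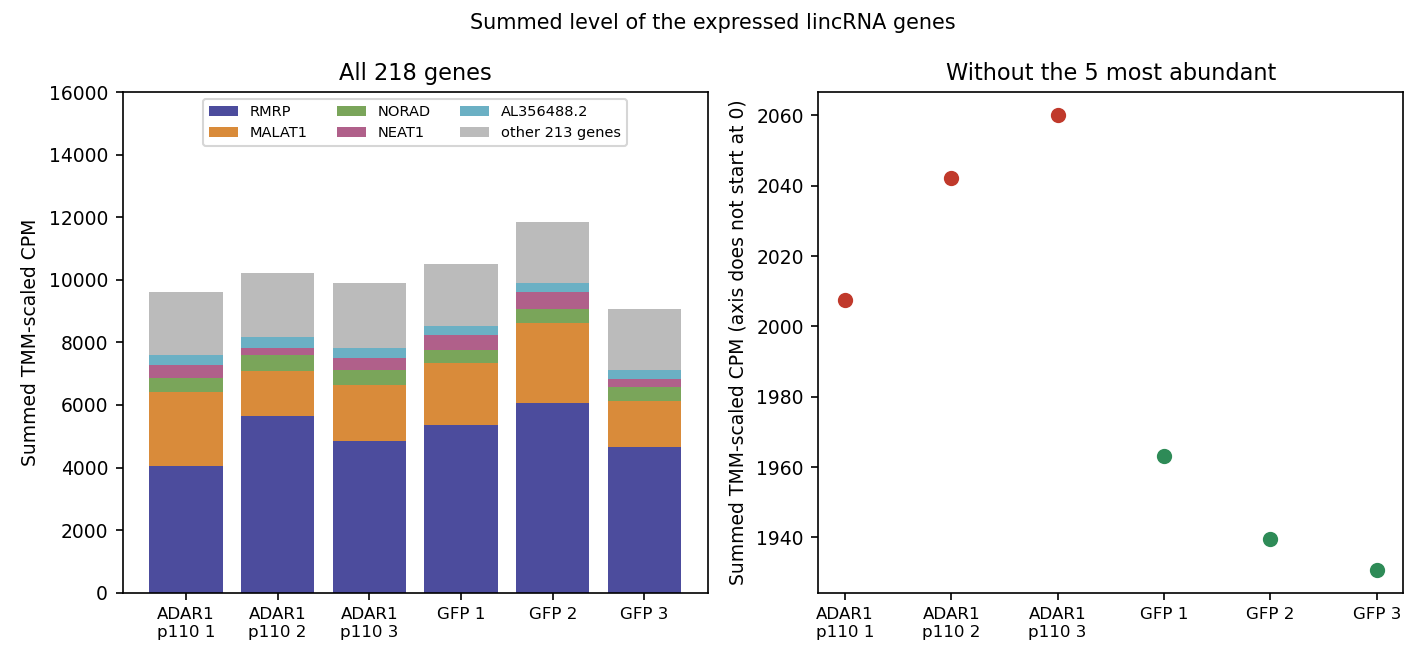
Left, summed TMM-scaled CPM of the 218 lincRNA genes in each library, stacked by gene for the 5 most abundant, on an axis from 0. Right, the sum of the other 213 genes, on an axis that does not start at 0; the ADAR1 p110 libraries (red, 2008 to 2060 CPM) lie above the GFP libraries (green, 1931 to 1963 CPM).

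Because many lincRNA genes are transcribed beside a protein-coding gene, each was set beside its nearest tested one. For 217 of the 218 genes such a neighbour was found: 32 overlapped it, 64 lay within 5000 bases of it without overlap, and 64 lay more than 50000 bases away. In 28 of the 217 pairs the nearest gene was called, 12 times higher and 16 times lower in ADAR1 p110 cells. This was 12.9% of the pairs, beside 6.29% of all tested protein-coding genes and 7.11% of those with at least 2 CPM, as a description with no test. The pairs are not distinct genes: SLC31A2, called lower, was the neighbour of both FAM225A and FAM225B. Of the 10 called lincRNA genes, 3 had a called neighbour, and 1 of these moved the same way. Over the 217 pairs the log2 fold changes had a Pearson r of 0.07 and a Spearman rho of 0.15, as a description across genes that are not independent.

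The pair that moved together was CRNDE and IRX5, 1673 bases apart on opposite strands. IRX5, an Iroquois homeobox transcription factor, had 5.76 ± 0.115 CPM in ADAR1 p110 cells and 3.87 ± 0.315 CPM in GFP cells (log2 fold change 0.57, SE 0.10, adjusted p = 0.00604, edgeR). LINC01806 and its neighbour TANK, 8518 bases away, moved in opposite directions. TANK, an adaptor that restrains NF-kappaB and feeds the kinase TBK1, had 40.8 ± 0.505 CPM in ADAR1 p110 cells and 55.5 ± 1.16 CPM in GFP cells (log2 fold change -0.44, SE 0.05, adjusted p = 0.000556, edgeR). AC093323.1 and S100P, 17022 bases apart, also differed in sign: S100P, a calcium-binding protein of the S100 family, had 5.77 ± 0.0330 CPM in ADAR1 p110 cells and 9.44 ± 0.288 CPM in GFP cells (log2 fold change -0.71, SE 0.08, adjusted p = 0.000327, edgeR; SD, n = 3 each throughout).

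The nearest genes of the other 7 called lincRNA genes were not called. PTTG1, the securin gene 39524 bases from MIR3142HG, had 204 ± 18.5 CPM in ADAR1 p110 cells and 206 ± 14.04 CPM in GFP cells (adjusted p = 0.964, edgeR). LEKR1, 35712 bases from LINC02029, had a log2 fold change of 0.49 (adjusted p = 0.186, edgeR). KMT2C, a histone methyltransferase gene 27781 bases from LINC01003, had 132 ± 45.4 CPM in ADAR1 p110 cells and 141 ± 33.5 CPM in GFP cells (adjusted p = 0.879, edgeR; SD, n = 3 each). The falls and rises of these 3 lincRNA genes thus stood without a call in the gene beside them. DCBLD2 beside LINC00973 had a log2 fold change of -0.14 (adjusted p = 0.164), SHH beside AC021218.1 had 0.38 (0.0986), FAM72C beside AC239800.3 had 0.46 (0.312) and ALYREF beside AC145207.5 had 0.04 (0.768), all by edgeR.

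**Figure D5:**
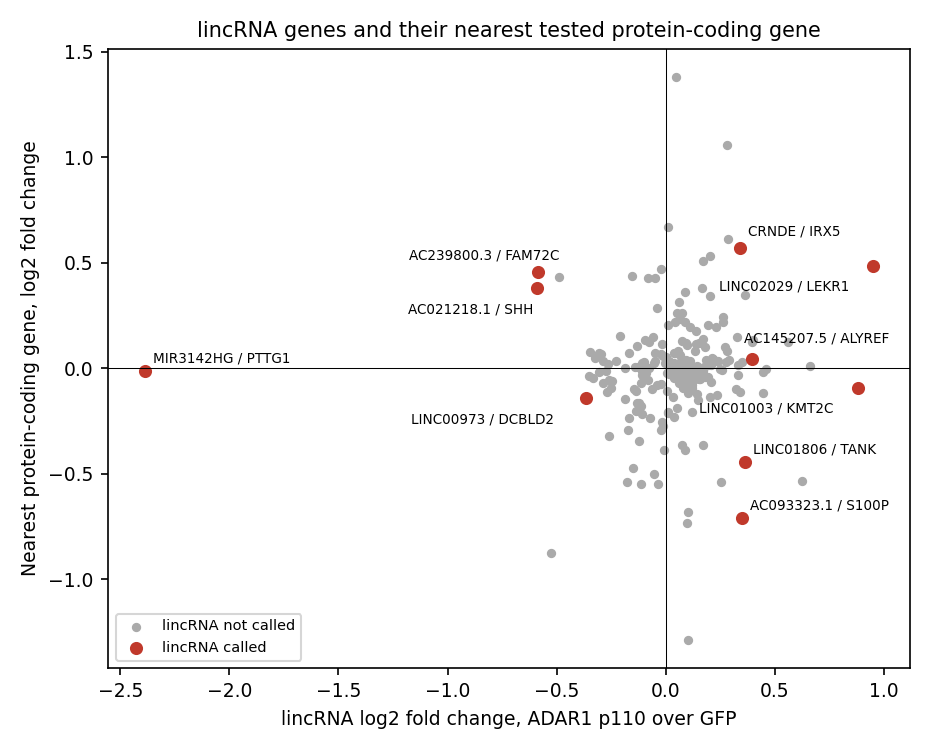
Log2 fold change (ADAR1 p110 over GFP) of the nearest tested protein-coding gene against that of the lincRNA gene, 1 point for each of 217 pairs; red points are called lincRNA genes, each named with its neighbour. CRNDE and IRX5 lie together in the upper right, while LINC01806 with TANK and AC093323.1 with S100P lie in the lower right.

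A closer arrangement, a start within 1000 bases of the start of a protein-coding gene on the opposite strand, was found for 47 genes. None of these was called by edgeR, where 4.59% of the 218 genes and 4.91% of all tested genes were. At such shares a group of 47 genes can hold none, so this is not read as a trait of these genes. An unadjusted p under 0.05 was found in 11 of the 47 (23.4%). This was so for 54 of all 218 lincRNA genes, a similar share, and for 18.6% of all tested genes. Of their protein-coding partners 7 (14.9%) were called, beside 6.29% of all tested protein-coding genes. Their median log2 fold change was 0.09, against 0.06 for the other genes, and their Pearson r with the partner was 0.24. SNHG18, a snoRNA host opposite the axon guidance gene SEMA5A, had a log2 fold change of 0.28 (adjusted p = 0.175), beside 0.61 for SEMA5A (adjusted p = 0.00992, edgeR). PSMB8-AS1 had -0.05, beside -0.22 for PSMB8 (adjusted p = 0.0421, edgeR). ATP2B1-AS1, opposite a plasma membrane calcium pump gene, had -0.01, beside -0.39 for ATP2B1 (adjusted p = 0.00387, edgeR). Among the 7 pairs with a called partner, the partner's change was the larger in 6, which choosing pairs by the partner's call favours, and the difference was not tested. In the other pair AC009414.2 had 0.26 and its partner CRIM1 had 0.22 (adjusted p = 0.0319, edgeR). In all, 89 of the 218 genes overlap another tested gene, 56 of them on the opposite strand, where reads cannot be assigned with certainty.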

How the data were processed

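Total RNA of 6 MDA-MB-231 libraries, 3 per virus, was sequenced after stranded library preparation, per the labels' protocols. Reads were aligned to hg19 with STAR 2.5.2a and counted with featureCounts 1.5.1, with DESeq2 1.4.5 in R 3.1 for testing, per the submitters' processing notes. The values deposited by the authors are raw whole-number counts per gene, with gene type, coordinates and length per the file headers. Not given in the sources used here are the strand setting and how multiply aligned or duplicate reads were handled.

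In R 4.3.3 the counts were filtered with edgeR 4.0.16 (filterByExpr, minimum count of 10), TMM-scaled, and fitted on group by quasi-likelihood (glmQLFit, glmQLFTest). Benjamini-Hochberg adjustment ran over all 18899 genes tested, and glmTreat tested a change of 1.5-fold. An SE is the log2 fold change divided by the root of the F statistic, and values are means ± SD. The biological coefficient of variation was 8.00%. Set membership used CPM from raw library totals. A count of 0 would allow 3 counts, 0.0301 to 0.0412 CPM by library, a limit of counting error alone, as reads are not independent molecules. Replicates differed by more than sampling noise (chi-square per degree of freedom 8.80 to 40.9). The test was checked on simulated counts.

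The genes, the 6 role lists and the alternatives were chosen with earlier results of these data known. Named were the 10 genes with the highest mean CPM, every called gene, for each list the called gene with the smallest p or its most abundant gene, the 2 genes on either side of the CPM limit, and the nearest tested protein-coding gene of each called gene. Other list members are quoted as examples and were picked after their values were seen, as were the lincRNA genes named with a divergent partner.

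As alternatives, scaling used DESeq2 size factors or library size; others were no low-count filter, the DESeq2 1.42.0 Wald test, limma-voom (limma 3.58.1), the replicate number as a block, each library left out in turn, ADAR1 p110 replicate 1 and GFP replicate 2 left out together, a limit of 5 CPM, and removal of genes that overlap another. Promoter windows and microRNA sequences are RefSeq's (GRCh38.p14), while gene coordinates are those of the deposited table (hg19). Figures were drawn with matplotlib 3.10.9.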

Additional observations from a re-analysis of the deposited data

How the results depend on the processing

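Against 6 genes called higher and 4 lower, the counts were 17 and 7 with no low-count filter (11.01% of the lincRNA genes, against 4.57% of the 34005 genes then tested) and 13 and 6 by the DESeq2 Wald test (8.72% against 6.94%). With ADAR1 p110 replicate 1 and GFP replicate 2 left out together they were 16 and 6 (10.1% against 13.4% of all tested genes), and with each library left out in turn 2 to 13 and 2 to 5. At 5 CPM or more, 115 genes remained and 2 were called lower. Past 1.5-fold, 2 genes were called with no filter and 0 at 5 CPM or more, where the main test still called 5 higher and 2 lower. The cause of these shifts was not tested, except that the 5 CPM limit leaves MIR3142HG out.

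MIR3142HG, LINC02029, LINC01003 and LINC00973 were called in 13 of 13 alternatives, AC021218.1 in 12, AC239800.3 in 9, AC145207.5 and LINC01806 in 8, AC093323.1 in 6 and CRNDE in 5. Over 260 alternative values of the 20 named genes, 223 kept direction and side of the threshold, 30 lost a call, 4 gained one and 3 changed sign. The sign changes were RMRP at 0.072 with both libraries that stood apart left out, and MALAT1, which ran from -0.32 to 0.11 with 1 library left out, at 0.04 without ADAR1 p110 replicate 2 and 0.11 without GFP replicate 2.

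The difference in summed level, -574 CPM with all genes and libraries, ran from -1277 to 116 with 1 library left out and was 264 with both libraries that stood apart left out. It was 92.1 without the 5 most abundant genes and 76.8 without RMRP and MALAT1, an alternative chosen after seeing the data. The difference without the 5 most abundant genes ran from 80.4 to 107 with 1 library left out, and was 125 by library size alone, also chosen after seeing the data.

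The labels give both groups replicate numbers, but same-numbered libraries did not deviate together (r = -0.11, -0.03 and 0.04 for numbers 1, 2 and 3). With the replicate number as a block, 3 genes were called higher and 4 lower, and 508 of all tested genes (2.69%) were called in place of 927. The calls lost were CRNDE, AC145207.5, LINC01806 and AC093323.1, at an adjusted p of 0.0987, 0.0687, 0.0972 and 0.131 in this order (edgeR). Without a link between same-numbered cultures in the labels, a call lost under the block is not described as a weaker effect. Depth limits the least expressed genes: the 28 to 72 counts of MIR3142HG in ADAR1 p110 libraries are the fewest behind any called gene.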

Other observations

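AC020916.1, now named MIR23AHG, is the precursor gene of the miR-23a and miR-27a cluster and was chosen with its values known. It had 25.7, 23.6 and 40.4 CPM in ADAR1 p110 replicates 1, 2 and 3, against 25.1, 16.1 and 16.9 CPM in GFP replicates 1, 2 and 3, and was not called (log2 fold change 0.62, SE 0.20, adjusted p = 0.123, edgeR). The groups overlapped. The rows of the hairpins MIR27A and MIR23A lie 151 and 298 bases from its span and were called higher. MIR27A had 132, 166 and 247 counts in ADAR1 p110 libraries and 78, 40 and 79 in GFP libraries (log2 fold change 1.54, SE 0.28, adjusted p = 0.00939, edgeR). MIR23A had 121, 129 and 203 counts in ADAR1 p110 libraries and 88, 55 and 67 in GFP libraries (log2 fold change 1.16, SE 0.27, adjusted p = 0.0331, edgeR). Total RNA libraries of this kind do not measure the mature microRNAs well. Their mature sequences have these seeds, in capitals (RefSeq, GRCh38.p14, minus strand of chromosome 19).
hsa-miR-23a-3p: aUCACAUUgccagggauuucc
hsa-miR-27a-3p: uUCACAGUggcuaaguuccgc

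Other genes with a log2 fold change beyond 0.5 were not called. AC027575.2 had 4.07 ± 1.23 CPM in ADAR1 p110 cells and 2.59 ± 0.794 CPM in GFP cells (adjusted p = 0.182, edgeR), with overlapping groups. AC084033.3 had 4.15 ± 0.675 CPM in ADAR1 p110 cells and 2.81 ± 0.481 CPM in GFP cells (adjusted p = 0.0702, edgeR), and LINC00996 had 2.03 ± 0.119 CPM in ADAR1 p110 cells and 2.92 ± 0.458 CPM in GFP cells (adjusted p = 0.0668, edgeR; SD, n = 3 each). The groups of AC084033.3 and LINC00996 did not overlap.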
